A study of Rattus norvegicus with 8 samples.

Results

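The genes described here build the machinery of cell division, and they were followed in the liver of rats given a glucocorticoid, an activator of the kinase AMPK, or both. A list of 44 genes was set by name, 31 of them genes of mitosis and 13 of S phase, the stage at which DNA is copied. A gene entered through the probe sets that the annotation assigns to it alone, and the probe set with the highest mean over the 8 arrays stood for it. This gave 42 of the 44 genes, 30 mitotic and 12 of S phase, among 14217 genes with such a probe set. Tpx2 has no probe set in the annotation used here, and the probe sets of Rrm2 also carry the symbol Rrm2l1, so neither is given a value.

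Male Sprague-Dawley rats of 180 to 200 g received dexamethasone, a synthetic glucocorticoid, at 1.5 mg/kg into muscle, AICAR, a nucleoside that activates AMPK, at 0.7 g/kg into the peritoneal cavity, both agents, or neither. Saline stood in for each agent not given, so the vehicle group had saline by both routes. The whole liver was taken 8 h after injection, and Affymetrix arrays measured its total RNA. Each of the 4 groups held 2 arrays. The labels give the animals' weight and not their age. Whether the arrays of a group stand for different animals is not said either, and the p-values below thus rest on a spread that may be technical. The design asks whether AMPK alters what glucocorticoids do in liver.

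A dividing cell first copies its DNA. The Mcm helicase opens the double helix, the Pcna clamp holds the polymerases on it, and enzymes such as ribonucleotide reductase, thymidine kinase and thymidylate synthase supply the nucleotides. Cyclins A and B then switch on the kinase Cdk1, the spindle forms, the checkpoint kinases wait until every chromosome is attached, and the anaphase-promoting ubiquitin ligase triggers the separation of the chromosomes. Most mitotic genes are transcribed late in the cycle, from promoters that share a cell cycle homology region (CHR) and CCAAT boxes, which the factor NF-Y binds, while S-phase genes are transcribed earlier, from promoters with sites for E2F factors. Hepatocytes of an adult liver rarely divide, and the liver of a young growing rat holds some dividing cells of several types.

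The promoters of the members are shown first, because the mitotic and S-phase genes are described apart below and their promoters are known to be read by different factors. RefSeq promoters of the GRCr8 assembly, 250 bases before to 50 after the annotated start, were on hand for 35 of the 42 measured members. The windows below give the 150 bases before the start for Cdkn3, Ect2 and Cdk1, which had the 3 largest measured falls under dexamethasone among members with a promoter here, for the B cyclin Ccnb2, and for 2 Mcm genes of S phase, with matches to the motifs in capitals. Both strands were searched. The letters TTTGAA counted as a CHR, and so did the form TTCGAA. The box of NF-Y was searched as CCAAT. An E2F match was any of these forms: TTCCCGC was the first, while TTGGCGC was the next, with TTCGCGC after it and also TTGCCGC. A match that reaches past the start is not in capitals.
Cdkn3 (chr15:22502236-22502385, plus strand): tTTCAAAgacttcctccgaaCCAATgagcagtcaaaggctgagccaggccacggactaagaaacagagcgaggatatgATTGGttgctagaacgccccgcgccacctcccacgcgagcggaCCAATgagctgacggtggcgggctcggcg
Ect2 (chr2:111966627-111966776, minus strand): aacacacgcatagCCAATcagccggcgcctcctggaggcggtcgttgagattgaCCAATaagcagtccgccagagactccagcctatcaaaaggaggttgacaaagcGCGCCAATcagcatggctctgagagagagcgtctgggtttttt
Cdk1 (chr20:19265143-19265292, plus strand): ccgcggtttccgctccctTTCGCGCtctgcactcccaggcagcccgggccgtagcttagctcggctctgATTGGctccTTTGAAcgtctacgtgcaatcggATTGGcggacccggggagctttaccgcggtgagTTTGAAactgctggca
Ccnb2 (chr8:79981659-79981808, minus strand): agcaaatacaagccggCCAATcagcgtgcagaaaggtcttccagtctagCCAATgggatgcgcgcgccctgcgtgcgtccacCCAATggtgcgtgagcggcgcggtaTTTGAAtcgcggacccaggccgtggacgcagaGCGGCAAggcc
Mcm6 (chr13:42404353-42404502, minus strand): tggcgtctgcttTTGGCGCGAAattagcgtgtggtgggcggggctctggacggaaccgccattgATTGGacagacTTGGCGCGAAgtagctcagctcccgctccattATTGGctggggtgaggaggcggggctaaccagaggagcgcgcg
Mcm5 (chr19:13488663-13488812, plus strand): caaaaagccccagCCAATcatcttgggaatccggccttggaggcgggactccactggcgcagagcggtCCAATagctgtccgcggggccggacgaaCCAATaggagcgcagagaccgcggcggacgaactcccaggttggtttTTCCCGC

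In the Cdk1 window the CHR matches stand close to matches of the CCAAT box, read on the opposite strand as ATTGG. The Mcm6 window holds pairs of E2F matches that overlap on the opposite strands. In the Ect2 window an E2F match overlaps a CCAAT box. A match is a description of letters, not a site shown to be bound.

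Over the full promoters, 17 of the 24 mitotic genes (70.8%) held a CHR match, against 3 of 11 S-phase genes (27.3%) and 19.5% of 27457 rat genes. A CCAAT box was in 19 mitotic promoters (79.2%), in 7 of S phase (63.6%) and in 37.7% of all genes, and 14 mitotic promoters (58.3%) held more than 1, against 11.5% of all genes. Both CHR and CCAAT were in 16 mitotic promoters (66.7%) and 2 of S phase (18.2%), against 7.83% of all genes. E2F matches ran the other way: they were in 8 S-phase promoters (72.7%), 6 mitotic ones (25%) and 10% of all genes. Among the members, Bub1, Aurka, Kif2c, Melk, Tk1 and Dut held none of these letters in the window.

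**Figure D1:**
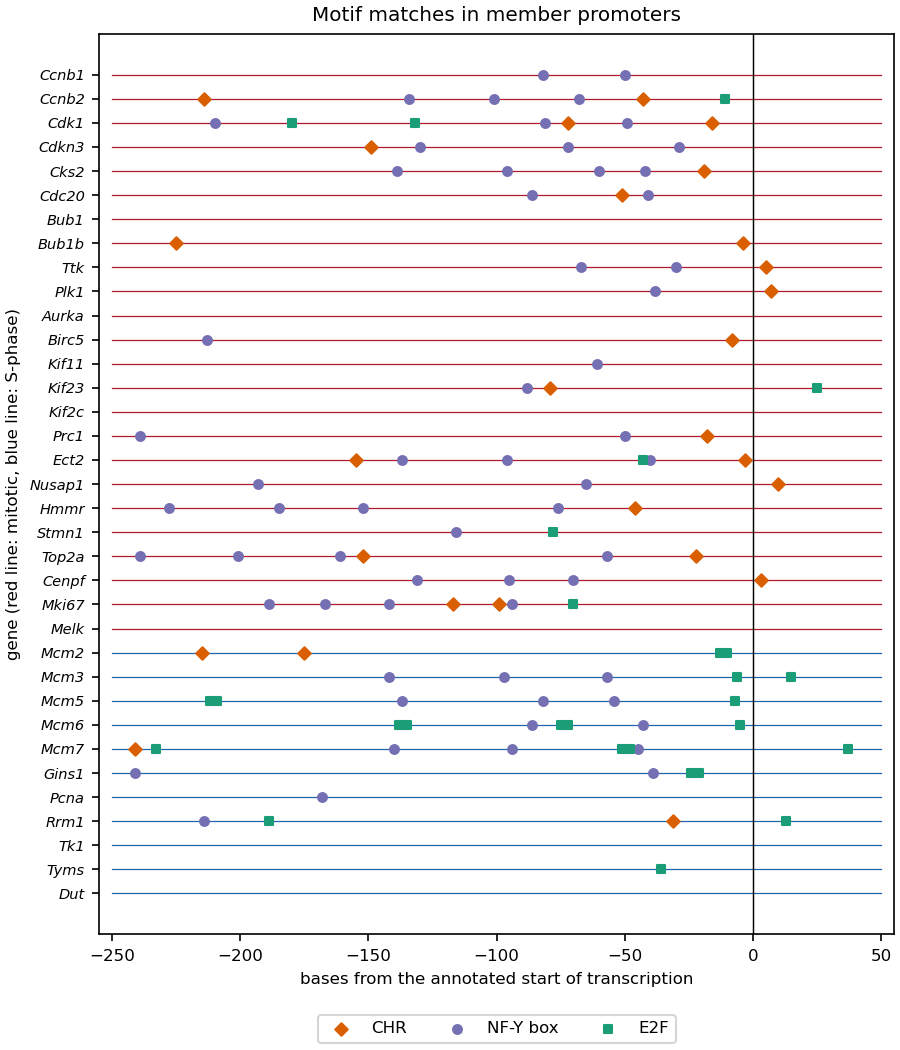
Position of each motif match, in bases from the annotated start, in the 35 member promoters (red lines mitotic, blue lines S-phase; diamonds CHR, circles CCAAT, drawn as NF-Y box, squares E2F). CHR matches lie in 17 of 24 mitotic and 3 of 11 S-phase promoters, and E2F matches in 6 and 8.

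Values are on the log2 scale as the authors deposited them, and a value after ± is the standard error of a log2 difference from limma (n = 2 arrays per group) unless SD is written. Across probe sets, the correlation r was 0.997 to 0.998 for arrays of the same group and 0.979 to 0.993 for arrays of different groups. RNA quality, read from how far the actin control's 3′ probe set exceeds its 5′ one, gave 2.23 ± 0.04 for vehicle (SD, n = 2), 2.04 ± 0.01 for dexamethasone, 1.82 ± 0.03 for AICAR and 1.80 ± 0.04 for the combination, and its part in the results below was not tested. Hepatocyte markers were high, with a list mean between 13.65 and 13.72 in every array. A level below 3.84, the lowest lower quartile among the arrays, is called low here. A difference was called at an adjusted p under 0.05 by limma, with Benjamini-Hochberg adjustment over 31042 probe sets.

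Dexamethasone lowered most of the mitotic machinery 8 h after injection. Of the 30 mitotic genes, 26 fell and none rose, and 23 of these fell by at least 2-fold. The background was 18.4% of all probe sets called, with 8.67% higher and 9.77% lower. Among the 14217 genes with a probe set of their own, each taken by 1 probe set as the members were, 8.37% were higher and 14.3% lower. The median mitotic difference was -1.75 on the log2 scale, with a range from -3.81 for Cdkn3 to 0.07 for Kif23. Over all genes with a probe set of their own the median lay between -0.03, for dexamethasone against vehicle, and 0.02, for both agents against dexamethasone, in the 6 comparisons described. In 29 of the 30 genes both dexamethasone arrays lay below both vehicle arrays. The share of all probe sets separated in this way was not counted, so such counts, here and below, are a description. In whole liver, fewer dividing cells and less of these RNAs per dividing cell cannot be told apart.

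**Figure D2:**
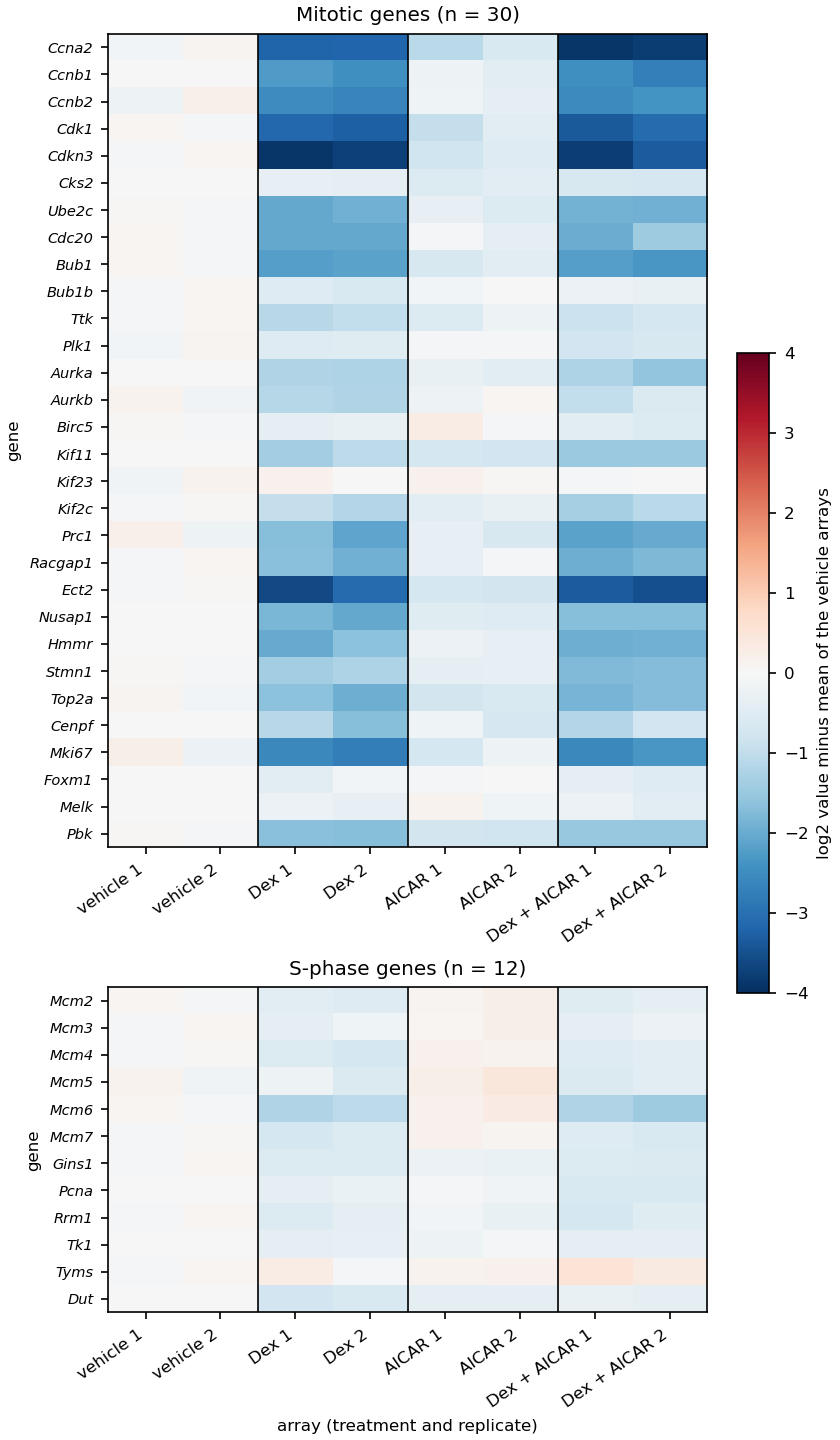
Log2 value of each member in each of the 8 arrays minus the mean of the vehicle arrays, with mitotic genes above and S-phase genes below (blue lower, red higher than vehicle). Most mitotic genes are darker blue in the 4 arrays with dexamethasone than in the AICAR arrays, and the S-phase genes are paler throughout.

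All 6 genes of the cyclins, Cdk1 and its partners fell, with a median of -2.89. Cdkn3, a phosphatase that acts on cyclin-dependent kinases, had log2 levels of 7.64 and 7.82 in vehicle, 3.84 and 4.0 after dexamethasone, 6.93 and 7.21 after AICAR and 3.96 and 4.41 after both. Its fall of 3.81 ± 0.16 (14-fold, adjusted p = 1.43e-06) was the largest measured among the members, and the 4 arrays with dexamethasone lay far below the other 4. Cdk1, the kinase that drives entry into mitosis, had levels of 7.53 and 7.38 in vehicle, 4.32 and 4.20 after dexamethasone, 6.49 and 7.01 after AICAR and 4.10 and 4.37 after both. Ccna2, cyclin A2, had 5.82 and 6.04 in vehicle, 2.73 and 2.74 after dexamethasone, 4.85 and 5.31 after AICAR and 2.02 and 2.13 after both, and its dexamethasone arrays were low by the mark above. Cdk1 fell by 3.20 ± 0.16 (9.17-fold) and Ccna2 by a measured 3.19 ± 0.14, whose size is uncertain because it ends at a low level.

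The B cyclins, which activate Cdk1 at the start of mitosis, fell too. Ccnb1 had levels of 7.01 and 6.98 in vehicle, 4.73 and 4.54 after dexamethasone, 6.79 and 6.58 after AICAR and 4.55 and 4.25 after both. Ccnb2 had levels of 6.77 and 7.16 in vehicle, 4.45 and 4.33 after dexamethasone, 6.79 and 6.62 after AICAR and 4.43 and 4.59 after both. In both the AICAR arrays stayed near vehicle or just below, and the falls under dexamethasone were 2.36 ± 0.12 and 2.58 ± 0.13. Cks2, a small protein bound to Cdk1, has the highest mean of these 6 and moved least, with 8.21 and 8.16 in vehicle, 7.86 and 7.84 after dexamethasone, 7.63 and 7.76 after AICAR and 7.54 and 7.5 after both. Its fall of 0.34 ± 0.08 (adjusted p = 0.0153) was lost, with an adjusted p of up to 0.0788, when either dexamethasone array or vehicle array 1 was left out.

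The spindle checkpoint and the anaphase ubiquitin ligase were lower as well, in 5 of 5 genes, with a median of -1.99. Cdc20, which activates that ligase, had levels of 7.31 and 7.15 in vehicle, 5.17 and 5.19 after dexamethasone, 7.17 and 6.86 after AICAR and 5.26 and 5.80 after both. Ube2c, its ubiquitin-conjugating enzyme, had 6.91 and 6.84 in vehicle, 4.82 and 4.95 after dexamethasone, 6.53 and 6.33 after AICAR and 4.97 and 4.97 after both. These values fell by 2.05 ± 0.17 and 1.99 ± 0.09, about 4-fold each (4.14-fold and 3.97-fold), with no overlap between dexamethasone and vehicle arrays. Among the checkpoint kinases, Bub1 had levels of 5.93 and 5.76 in vehicle, 3.65 and 3.72 after dexamethasone, 5.21 and 5.42 after AICAR and 3.63 and 3.51 after both. Ttk, which starts checkpoint signalling, had 4.63 and 4.76 in vehicle, 3.57 and 3.70 after dexamethasone, 4.15 and 4.5 after AICAR and 3.83 and 4.0 after both. Bub1 fell by 2.16 ± 0.10 and Ttk by 1.06 ± 0.12, both to low levels, and Bub1b, the checkpoint protein BubR1, by 0.56 ± 0.09.

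Among the mitotic kinases and partners 3 of 4 fell, with a median of -0.83. Aurka, a kinase of the centrosome and spindle pole, had levels of 6.18 and 6.24 in vehicle, 5.0 and 4.97 after dexamethasone, 5.91 and 5.79 after AICAR and 4.98 and 4.62 after both. Aurkb, the kinase of the chromosomal passenger complex, had 4.80 and 4.5 in vehicle, 3.51 and 3.44 after dexamethasone, 4.46 and 4.72 after AICAR and 3.68 and 4.07 after both. They fell by 1.22 ± 0.11 and 1.17 ± 0.15, and for Aurkb both dexamethasone arrays were low. Plk1, the polo-like kinase, has the highest mean of this set, with 6.41 and 6.61 in vehicle, 6.0 and 6.03 after dexamethasone, 6.47 and 6.42 after AICAR and 5.73 and 5.86 after both, and fell by 0.49 ± 0.09 (adjusted p = 0.00524). Birc5, survivin, a partner of Aurkb in that complex, gave a difference of -0.33 ± 0.12 and was not called (adjusted p = 0.102).

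Of the 9 genes of the spindle and of cytokinesis 8 fell, with a median of -1.80. Ect2, the exchange factor that activates RhoA for the cleavage furrow, had levels of 6.70 and 6.82 in vehicle, 3.15 and 3.67 after dexamethasone, 6.05 and 6.01 after AICAR and 3.43 and 3.23 after both. Its fall of 3.35 ± 0.15 (adjusted p = 2.6e-06) is of uncertain size, since its 4 arrays with dexamethasone were all low. Racgap1, which recruits Ect2 to the midzone, had levels of 5.36 and 5.5 in vehicle, 3.77 and 3.5 after dexamethasone, 5.09 and 5.35 after AICAR and 3.46 and 3.64 after both. Prc1, which bundles microtubules there, had 7.05 and 6.61 in vehicle, 5.12 and 4.71 after dexamethasone, 6.49 and 6.19 after AICAR and 4.69 and 4.80 after both. Racgap1 fell by 1.80 ± 0.12 and Prc1 by 1.92 ± 0.18, each to about a level shared by the dexamethasone arrays with and without AICAR.

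Kinesins and microtubule proteins of the spindle followed. Kif11, the kinesin that pushes the spindle poles apart, had levels of 5.71 and 5.68 in vehicle, 4.30 and 4.64 after dexamethasone, 4.99 and 4.94 after AICAR and 4.19 and 4.20 after both. Kif2c, a kinesin that takes microtubules apart, had 5.34 and 5.45 in vehicle, 4.45 and 4.23 after dexamethasone, 4.93 and 5.11 after AICAR and 4.08 and 4.31 after both. Kif11 fell by 1.22 ± 0.11 and Kif2c by 1.06 ± 0.11, and in Kif11 the AICAR arrays also lay between vehicle and dexamethasone. Nusap1, a microtubule-binding protein of the spindle, had levels of 7.17 and 7.18 in vehicle, 5.36 and 5.14 after dexamethasone, 6.68 and 6.67 after AICAR and 5.49 and 5.47 after both. Hmmr, which helps organise the spindle, had 6.0 and 6.04 in vehicle, 4.02 and 4.37 after dexamethasone, 5.79 and 5.70 after AICAR and 4.06 and 4.11 after both. Stmn1, stathmin, which destabilises microtubules and has the highest mean of this set, had 9.11 and 9.03 in vehicle, 7.67 and 7.82 after dexamethasone, 8.72 and 8.74 after AICAR and 7.29 and 7.33 after both. Their falls were 1.93 ± 0.09, 1.83 ± 0.11 and 1.32 ± 0.08, and no dexamethasone array of the 3 genes reached a vehicle array. Kif23, the kinesin partner of Racgap1, gave a difference of 0.07 ± 0.11 (adjusted p = 0.723) on the probe set that stood for it, and a second probe set differed from it, as given further on.

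All 3 chromosome genes fell, with a median of -1.80. Top2a, the topoisomerase that untangles sister chromatids, had levels of 6.87 and 6.63 in vehicle, 5.10 and 4.80 after dexamethasone, 6.02 and 6.12 after AICAR and 4.89 and 5.02 after both. Mki67, the Ki-67 protein used as a stain for dividing cells, had 6.02 and 5.52 in vehicle, 3.19 and 3.0 after dexamethasone, 5.08 and 5.56 after AICAR and 3.20 and 3.44 after both. Cenpf, a protein of the kinetochore, had 5.82 and 5.82 in vehicle, 4.70 and 4.12 after dexamethasone, 5.65 and 5.14 after AICAR and 4.65 and 5.04 after both. Mki67 fell by 2.67 ± 0.19 (adjusted p = 3.52e-05) to a low level, Top2a by 1.80 ± 0.12 and Cenpf by 1.41 ± 0.22, and the arrays of Cenpf spread more widely than those of the other 2 after dexamethasone. Among the last 3 mitotic genes, Pbk, a kinase of dividing cells, had levels of 5.97 and 5.87 in vehicle, 4.24 and 4.21 after dexamethasone, 5.19 and 5.13 after AICAR and 4.42 and 4.42 after both and fell by 1.70 ± 0.07. Foxm1, the transcription factor that switches on late cell cycle genes, gave -0.27 ± 0.10 (adjusted p = 0.114) and the kinase Melk -0.29 ± 0.11 (adjusted p = 0.115), and neither was called.

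The falls of the S-phase genes were smaller by their median. Of the 12, 9 fell and none rose, with a median of -0.46, and 1 of them, Mcm6, fell by 2-fold or more. In 11 of the 12 both dexamethasone arrays lay below both vehicle arrays. No S-phase gene had a low group mean, whereas 7 mitotic genes had one after dexamethasone and 5 after both agents. The median mitotic level went from 5.98 in vehicle to 4.44, and the median S-phase level from 6.33 to 5.87. Whether the mitotic and the S-phase genes differed in their response was not tested.

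Of the 8 helicase and clamp genes 6 fell, with a median of -0.51. Mcm6, a subunit of the replicative helicase, had levels of 5.65 and 5.51 in vehicle, 4.39 and 4.55 after dexamethasone, 5.75 and 5.92 after AICAR and 4.37 and 4.16 after both, and fell by 1.11 ± 0.11 (2.16-fold, adjusted p = 0.000155) with no overlap. Mcm2, Mcm4 and Mcm7, further subunits, fell by between 0.46 and 0.63. Mcm3 (-0.27 ± 0.10, adjusted p = 0.117) and Mcm5 (-0.40 ± 0.14, adjusted p = 0.0936) were not called. Gins1, part of the complex that joins the helicase to the polymerase, fell by 0.55 ± 0.08. Pcna has the highest mean here, with 9.09 and 9.14 in vehicle, 8.72 and 8.85 after dexamethasone, 9.04 and 8.99 after AICAR and 8.5 and 8.5 after both, and fell by 0.33 ± 0.08 (adjusted p = 0.0162). The call for Pcna was lost without dexamethasone array 1 or either vehicle array (adjusted p up to 0.0849), and also when only the 2 groups compared were fitted (adjusted p = 0.0571).

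Of the 4 nucleotide supply genes 3 fell, with a median of -0.40. Dut, which removes dUTP so that it does not enter DNA, has the highest mean of these and had levels of 8.95 and 8.97 in vehicle, 8.20 and 8.36 after dexamethasone, 8.56 and 8.60 after AICAR and 8.66 and 8.58 after both. It fell by 0.67 ± 0.08 (adjusted p = 0.000563), while its second probe set gave 0.27 and was not called. Rrm1, the large subunit of ribonucleotide reductase, fell by 0.45 ± 0.11 and Tk1, thymidine kinase, by 0.34 ± 0.07, and both calls were lost in refits, that of Rrm1 without dexamethasone array 1 or vehicle array 2 (adjusted p up to 0.112) and that of Tk1 without any 1 of the 4 arrays compared (up to 0.0673). Tyms, thymidylate synthase, gave 0.12 ± 0.13 and was not called (adjusted p = 0.621).

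**Figure D3:**
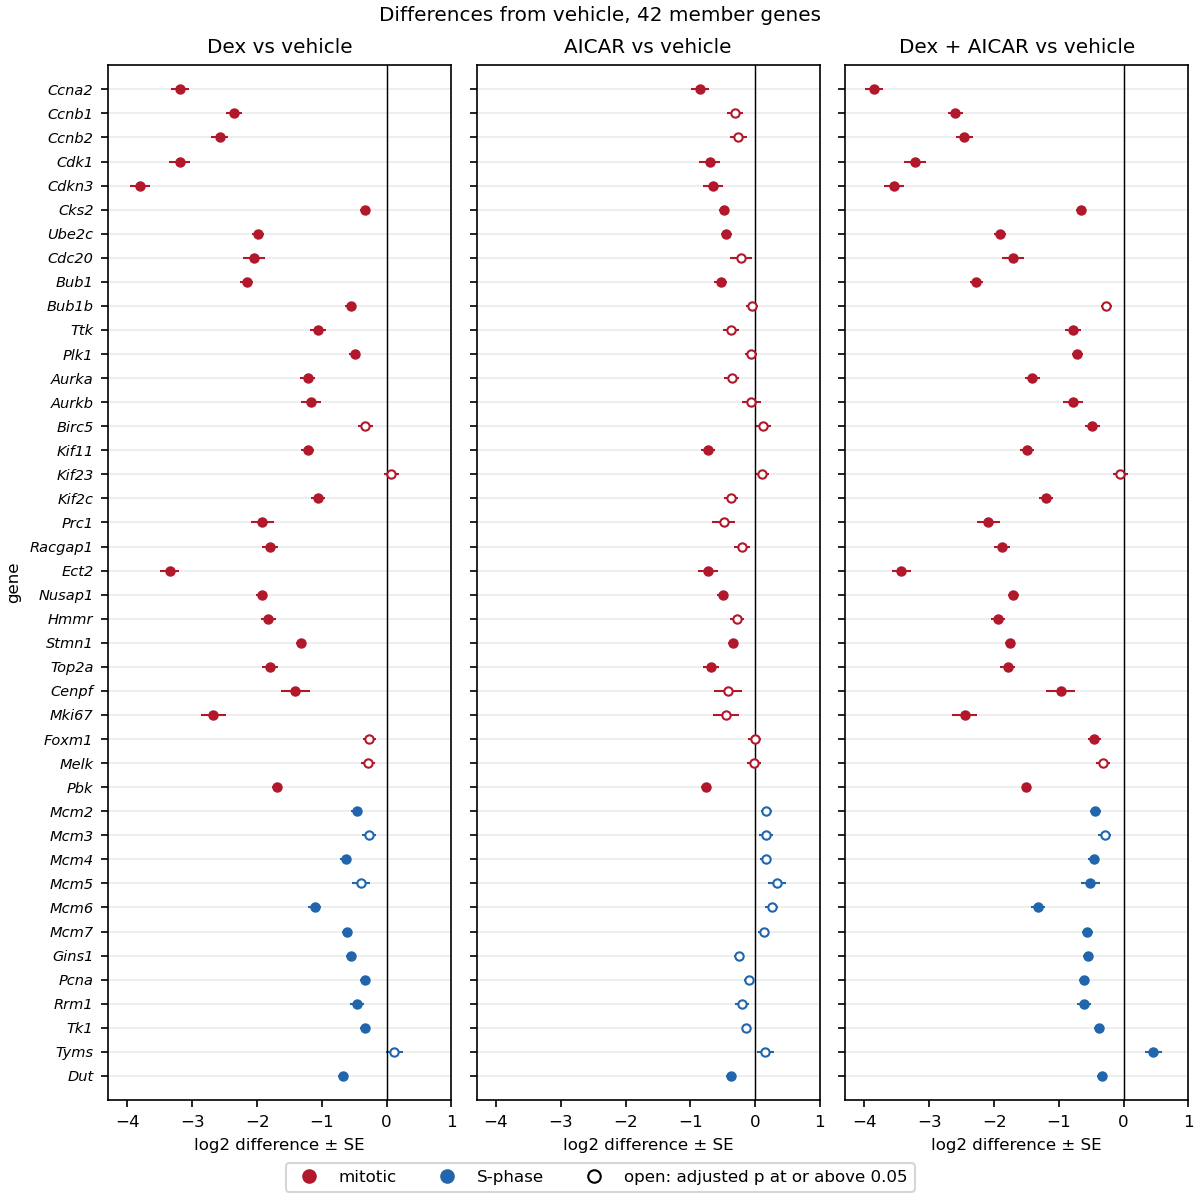
Log2 difference from vehicle with its standard error for each of the 42 members after dexamethasone, AICAR and both (2 arrays per group; red mitotic, blue S-phase; open circles were not called). Cdkn3, Ect2, Cdk1 and Ccna2 lie farthest to the left in both outer panels, and in the middle panel no gene passes -1.

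Markers of other liver cells moved under dexamethasone as well, beside the 14.3% of all genes that fell and the 8.37% that rose. Of 11 measured markers of Kupffer cells and macrophages, the resident phagocytes, 9 fell (median -0.96), and all 6 markers shared by leukocytes fell (median -0.76). Of the markers of T and NK cells 6 of 11 fell, of neutrophils 3 of 3, of B cells 1 of 3, of erythroid cells 3 of 8 with 1 that rose, of sinusoidal endothelial cells 5 of 8, and of stellate cells and fibroblasts 3 of 11 with 2 that rose. None of 5 cholangiocyte markers was called, and of 9 hepatocyte markers 1 rose and none fell (median 0.03). The part of other cell types in the fall of the mitotic genes was not tested in this comparison, and the combined treatment below sets the levels side by side.

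AICAR alone lowered 12 mitotic genes, none of them by 2-fold, and the difference between the 2 agents was not tested. Of the 30 none rose, against 12.9% of all probe sets called, 5.45% higher and 7.47% lower. Of all genes 6.22% were higher and 8.96% lower. The median was -0.37, the largest fall was 0.85 ± 0.14 in Ccna2. In 28 of the 30 genes the difference was below 0, against 7079 of all 14217 genes. In 20 of the 30 both AICAR arrays lay below both vehicle arrays, a count without a share over all probe sets beside it. The 12 that fell were Ccna2, Cdk1 (-0.70 ± 0.16), Cdkn3 (-0.65 ± 0.16), Cks2 (-0.49 ± 0.08), Ube2c (-0.44 ± 0.09), Bub1 (-0.53 ± 0.10), Kif11 (-0.73 ± 0.11), Ect2 (-0.73 ± 0.15), Nusap1 (-0.50 ± 0.09), Stmn1 (-0.34 ± 0.08), Top2a (-0.68 ± 0.12) and Pbk (-0.76 ± 0.07).

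By role, 4 of 6 genes of the Cdk1 group fell, 2 of 5 of the checkpoint and ligase group, none of the 4 mitotic kinases and partners, 4 of 9 of the spindle group, 1 of 3 chromosome genes, and 1 of the 3 of the last group. The B cyclins, which fell steeply under dexamethasone, gave -0.31 ± 0.12 and -0.26 ± 0.13 and were not called. Further probe sets of Kif11 (-0.12), Nusap1 (-0.26) and Top2a (-0.39) were not called under AICAR, so these falls are less certain. A further probe set of Cdc20 was called lower (-0.56, adjusted p = 0.0182), while the one that stood for Cdc20 was not. The calls rest on few arrays. The count of 12 was 6 without AICAR array 1, 5 without vehicle array 1 and 7 without vehicle array 2, and 5 genes, Ccna2, Cks2, Kif11, Nusap1 and Pbk, were called in every refit, a refit being a fit without 1 array or with 1 processing step changed, other than a 2-fold minimum.

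Under AICAR the share of S-phase genes called lower was near that of all genes (8.33% against 8.96%). Of the 12, 1 fell, Dut (-0.37 ± 0.08, adjusted p = 0.0193), none rose, and the median was 0.14. All 6 Mcm genes lay above vehicle, by 0.13 to 0.34, and were not called. In 7 of the 12 genes, which were the 6 Mcm genes and Tyms, both AICAR arrays lay above both vehicle arrays. In 5 both lay below, and the share of all probe sets separated in either way was not counted. The call for Dut was lost without any 1 of the 4 arrays compared (adjusted p up to 0.108) and with the mean over its probe sets (0.0939). Kupffer cell markers after AICAR had 3 genes higher and 1 lower of 11 (median 0.26), and no shared leukocyte marker was called. Of the stellate cell and fibroblast markers 6 of 11 rose and none fell (median 0.33), of the neutrophil markers 2 of 3 rose, and of the T and NK cell markers 2 of 11 fell. The part of these cell types was not tested.

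With both agents, 27 of the 30 mitotic genes were below vehicle and none above, 20 of them by at least 2-fold, with a median of -1.70. The background here was 26.9% of all probe sets called, 13.3% higher and 13.6% lower, and of all genes 15.9% were higher and 18.4% lower. Cdkn3 fell by 3.54 ± 0.16 (adjusted p = 9.88e-07) and Cdk1 by 3.22 ± 0.16. Ccna2 fell by a measured 3.85 ± 0.14 (adjusted p = 3.63e-07) and Ect2 by 3.43 ± 0.15, both to low levels, so their sizes are uncertain and they are given no rank. Bub1b (-0.27 ± 0.09), Kif23 (-0.05 ± 0.11) and Melk (-0.32 ± 0.11) were not called. Birc5 and Foxm1, uncalled after dexamethasone alone, fell by 0.48 ± 0.12 and 0.45 ± 0.10, and both calls were lost without array 2 of the combined treatment or vehicle array 1 (adjusted p up to 0.104 and 0.0756). The call of Cenpf (-0.97 ± 0.22) was lost without array 1 of the combined treatment (adjusted p = 0.0768).

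Of the S-phase genes 10 fell and 1 rose after both agents, with a median of -0.49. Mcm6 fell most, by 1.32 ± 0.11. The gene that rose was Tyms, with levels of 4.62 and 4.77 in vehicle, 5.0 and 4.62 after dexamethasone, 4.85 and 4.85 after AICAR and 5.26 and 5.05 after both, a rise of 0.46 ± 0.13 (adjusted p = 0.031) in which both arrays of the combined treatment lay above all other arrays. This call was lost without array 1 of the combined treatment or either vehicle array (adjusted p up to 0.183). That of Mcm5 (-0.51 ± 0.14) was lost without either array of the combined treatment or vehicle array 1 (up to 0.151), and that of Dut (-0.33 ± 0.08) without array 2 of the combined treatment or either vehicle array (up to 0.094) and with the mean over probe sets (0.106). Mcm3 (-0.29 ± 0.10) was not called. Tk1 fell by the probe set that stood for it, while a further one was called higher, as given further on.

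By the probe sets that stood for them, few division genes differed between both agents and dexamethasone alone. Of the 30 mitotic genes 3 were lower than after dexamethasone alone and 1 was higher, with a median of -0.08, against 20.1% of all probe sets called, 10.2% higher and 9.91% lower. The 3 were Ccna2 (-0.66 ± 0.14, adjusted p = 0.0115), Cks2 (-0.33 ± 0.08, adjusted p = 0.0163) and Stmn1 (-0.44 ± 0.08, adjusted p = 0.00515), and the 1 was Bub1b (0.29 ± 0.09, adjusted p = 0.047). Of these, the call of Stmn1 held in every refit. Ccna2 was not called without either dexamethasone array or array 1 of the combined treatment (adjusted p up to 0.0757), Cks2 not without any 1 of the 4 arrays compared (up to 0.0962), and Bub1b not without any 1 of the 8 arrays (up to 0.229). The Ccna2 levels were low in both groups, which makes the size of its difference uncertain. A second Ccnb1 probe set was called lower here (-0.44, adjusted p = 0.0172), with means of 3.93 after both and 4.36 after dexamethasone. A further Cdc20 probe set was called higher (0.29, adjusted p = 0.0426), at low levels in both groups. Another call, of a second Kif23 probe set, is given further on.

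The 95% interval of the difference lay within 2-fold for 30 of 30 mitotic genes, called ones included, with outer bounds of -0.98 (Ccna2) and 0.93 (Cenpf), and for 12 of 12 S-phase genes, with outer bounds of -0.46 (Pcna) and 0.64. For 5 of the mitotic genes, Ccna2, Bub1, Racgap1, Ect2 and Mki67, both groups had low means, and there an interval does not bound a further fall. Among S-phase genes Dut was higher (0.34 ± 0.08, adjusted p = 0.0172) and Pcna lower (-0.28 ± 0.08, adjusted p = 0.0282), with a median of -0.01. Dut lost its call without dexamethasone array 1 or either array of the combined treatment (adjusted p up to 0.116) and with the mean over probe sets (0.964), and its second probe set fell there by 0.33 (adjusted p = 0.0375), and Pcna lost it without dexamethasone array 2 or either array of the combined treatment (up to 0.132). The median mitotic level was 4.44 after dexamethasone and 4.41 after both, and the S-phase level 5.87 and 5.85.

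**Figure D4:**
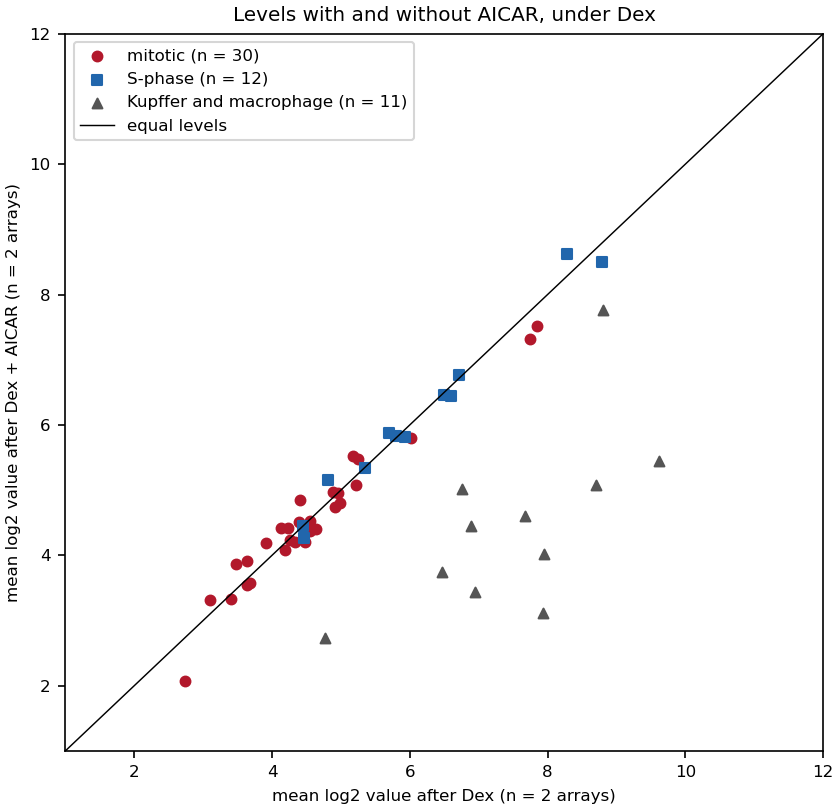
Mean log2 level of each gene after dexamethasone plus AICAR (y axis) against that after dexamethasone alone (x axis; 2 arrays each). Mitotic and S-phase members lie near the line of equal levels, while the 11 Kupffer cell markers fall below it.

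Kupffer cell markers moved far in the same comparison. All 11 were lower after both agents than after dexamethasone alone, with a median of -3.08, and Cd5l, a protein made by these cells, averaged 7.93 after dexamethasone and 3.12 after both. Their list mean lay at 4.47 and 4.51 in the arrays of the combined treatment, with 4 of the 11 markers low, against 7.43 and 7.58 after dexamethasone, 8.53 and 8.52 in vehicle and 8.68 and 8.67 after AICAR. The mitotic median moved by -0.08 in that comparison. Shared leukocyte markers had 3 of 6 genes lower (median -0.54), and hepatocyte markers 1 higher and 1 lower of 9 (median -0.01). Other lists did not all fall: 2 of 3 neutrophil markers were higher (median 2.18), and 3 of 8 erythroid markers were higher and 1 lower. Of the stellate cell and fibroblast markers 3 of 11 were higher and 2 lower, and of the sinusoidal endothelial ones 2 of 8 were higher and 2 lower. Of the T and NK cell markers 2 of 11 were lower.

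**Figure D5:**
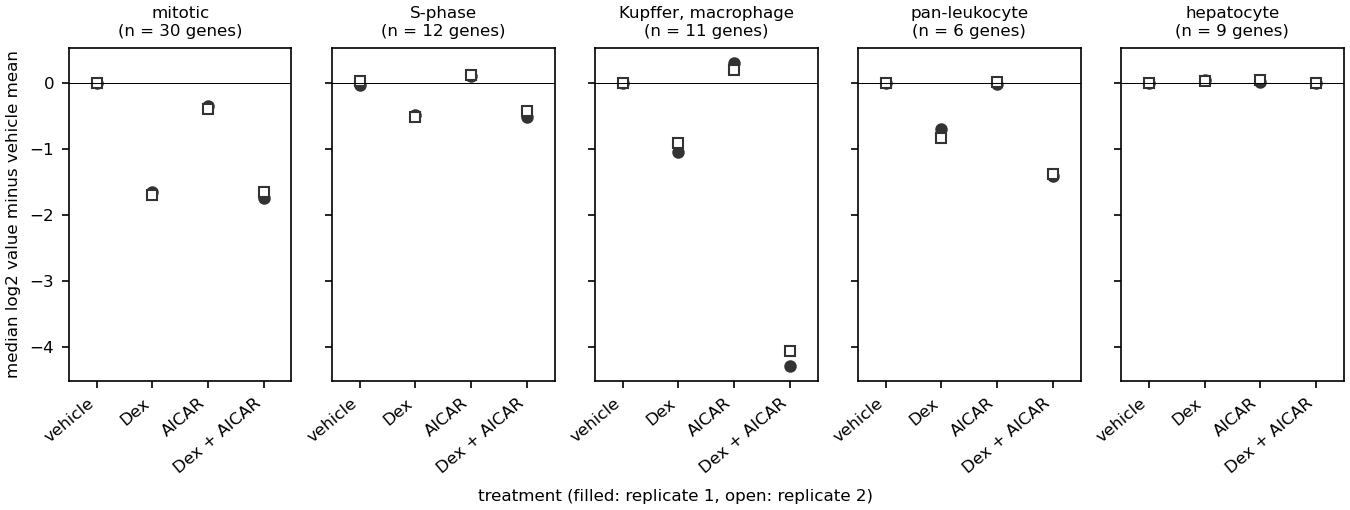
Median over each gene list of the log2 value minus the vehicle mean, 1 point per array (filled replicate 1, open replicate 2). Mitotic genes sit at -1.66 and -1.70 after dexamethasone and at -1.74 and -1.65 after both, while Kupffer cell markers go from -1.04 and -0.92 to -4.28 and -4.06.

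Dexamethasone lowered the division genes also in animals that had AICAR. Between both agents and AICAR alone, 25 of the 30 mitotic genes fell and none rose, 17 of them by at least 2-fold, with a median of -1.16. The background was 30.8% of all probe sets called, 15.9% higher and 14.9% lower, and of all genes 18.7% were higher and 19.4% lower. Ccna2 (-3.00 ± 0.14), Cdkn3 (-2.89 ± 0.16), Ect2 (-2.70 ± 0.15) and Cdk1 (-2.52 ± 0.16) had the largest measured differences, those of Ccna2 and Ect2 ending at low levels. Cks2 (-0.18 ± 0.08), Bub1b (-0.22 ± 0.09), Kif23 (-0.15 ± 0.11), Cenpf (-0.55 ± 0.22) and Melk (-0.30 ± 0.11) were not called. Of the S-phase genes 10 fell and none rose, with a median of -0.49, and all 8 helicase and clamp genes were among them, from -0.30 ± 0.08 in Gins1 to -1.57 ± 0.11 in Mcm6. Dut (0.04 ± 0.08) and Tyms (0.30 ± 0.13) were not called. Calls of Foxm1, Ttk, Gins1, Mcm3, Rrm1 and Tk1 were lost without at least 1 of the 4 arrays compared (adjusted p up to 0.203, for Ttk), and the other 23 mitotic and 6 S-phase calls held in every refit. The comparisons share arrays with each other, so their values are set side by side and not correlated.

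The interaction asks whether the effect of dexamethasone differed in the presence of AICAR. A value above 0 means that the fall under dexamethasone was smaller with AICAR. It was called above 0 in 6 of the 30 mitotic genes (20%) and below 0 in none, with a median of 0.36. Of all probe sets 15.6% were called, 8.63% above and 7.02% below, and of all genes 11.9% were above and 8.05% below. In 24 of the 30 mitotic genes the interaction was above 0, against 7369 of all 14217 genes. Mitotic genes with low means after dexamethasone (7) or after both agents (5) have an interaction of uncertain size. The 6 were Pbk (0.95 ± 0.10, adjusted p = 0.000583), Cdkn3 (0.92 ± 0.22, adjusted p = 0.0241), Nusap1 (0.73 ± 0.12, adjusted p = 0.00492), Top2a (0.68 ± 0.17, adjusted p = 0.0281), Ttk (0.65 ± 0.17, adjusted p = 0.0381) and Ube2c (0.52 ± 0.13, adjusted p = 0.0257).

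In Pbk the fall under dexamethasone was 1.70 ± 0.07 without AICAR and 0.74 ± 0.07 with it, and in Nusap1 1.93 ± 0.09 and 1.20 ± 0.09. AICAR alone lowered both, and the levels under dexamethasone with and without AICAR were near each other. A second Nusap1 probe set was called neither in the interaction (0.37, adjusted p = 0.0936) nor under AICAR (-0.26, adjusted p = 0.0949). The call of Pbk and that of Nusap1 held in every refit. Cdkn3 lost its call without AICAR array 1, dexamethasone array 1, vehicle array 2 or array 2 of the combined treatment (adjusted p up to 0.0813), and Top2a (up to 0.0949), Ttk (up to 0.122) and Ube2c (up to 0.0794) lost theirs without at least 6 of the 8 arrays, left out 1 at a time. Top2a also lost it with centring and with the mean over its probe sets (adjusted p up to 0.123). Of the S-phase genes 1 was called, Dut (0.71 ± 0.11, adjusted p = 0.00392), which fell by 0.67 ± 0.08 without AICAR and gave 0.04 ± 0.08 with it. The Mcm genes ranged from -0.46 in Mcm6 to 0.00 in Mcm4 and were not called.

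Over all 6 comparisons, by the probe set that stood for each gene, Kif23 and Melk were called in none, Mcm3 and Tyms in 1 each, and the remaining members in at least 2. The second probe set of Kif23 was called in several, as given below. Of the 26 mitotic calls for dexamethasone against vehicle, 25 held in every refit, Cks2 being the exception, and of the 9 S-phase calls 5 did, the exceptions being Pcna, Rrm1, Tk1 and Dut, the last with the mean over its probe sets (adjusted p = 0.116). Across the 30 mitotic genes the vehicle level and the dexamethasone difference had a Spearman correlation of -0.59, and across the 12 S-phase genes -0.15. These genes share the same arrays and a common floor of signal, so the correlation is given as a description.

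Other probe sets were on the array for 13 members, and some differed from the one that stood for the gene. A second Kif23 probe set fell by 1.15 under dexamethasone (adjusted p = 2.55e-05), where the first gave 0.07. It was also called for both agents against vehicle (-0.84), against AICAR (-0.64) and against dexamethasone (0.31), and in the interaction (0.51). Its means after dexamethasone (3.47) and after both (3.77) were low, so these sizes are uncertain. A second Ttk probe set gave -0.10 and was not called, nor was its interaction of 0.14, and its means were low in every group. The first Ttk probe set was low after dexamethasone alone, so the size of its interaction is uncertain. The 4 further probe sets of Cdc20 gave -1.74, -0.55, -0.26 and -0.22, all in the same direction as the first. A second Dut probe set gave 0.27 (adjusted p = 0.0777), opposite in sign to the first, so the fall of Dut is uncertain. For Tk1 the further ones gave -0.65 and 0.09. For both agents against vehicle they were called in opposite directions (-0.68, adjusted p = 0.00179, and 0.33, adjusted p = 0.0231). Against AICAR they gave -0.33 and 0.26, and neither was called. The fall of Tk1 after both agents is therefore uncertain. Ccnb1 (-2.37), Nusap1 (-1.68), Hmmr (-0.84), Racgap1 (-0.84), Top2a (-0.76), Kif11 (-0.49) and Kif2c (-0.45) each had a further probe set below 0.

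Further genes of the same pathways were taken from lists set by name. Of 45 measured further mitotic genes, 28 fell under dexamethasone and none rose (median -0.58), 11 fell and none rose under AICAR (median -0.23), and 33 fell and 2 rose after both (median -0.68). Between both agents and dexamethasone 3 were lower and 3 higher (6.67% each, median -0.02), against 11.3% and 14% of all genes. The interaction was called above 0 in 8 (17.8%, against 11.9% of all genes) and below 0 in none (median 0.23). For the other comparisons the shares over all genes are given above. Kif20a, a kinesin of cytokinesis, fell by 2.13 ± 0.10 under dexamethasone, Aspm, a spindle pole protein, by 1.69 ± 0.10, and Lmnb1, lamin B1 of the nuclear envelope, by 1.36 ± 0.09. The fall of Lmnb1 is uncertain, because its 2 further probe sets gave 0.11 and -0.46 (adjusted p = 0.0905) and neither was called. Under AICAR, Aspm fell by 0.66 ± 0.10 and Smc4, a subunit of condensin, by 0.63 ± 0.10.

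Of 49 measured further S-phase genes, 12 fell under dexamethasone and 1 rose (median -0.18), 1 fell and 5 rose under AICAR (median 0.01), and 12 fell and 4 rose after both (median -0.15). Lig1, the ligase that joins Okazaki fragments, fell by 0.65 ± 0.09 under dexamethasone, with -0.42 and no call on its second probe set, and Dnmt1, which copies DNA methylation onto new strands, by 0.48 ± 0.08. Under AICAR the primase subunits parted, Prim1 rising by 0.81 ± 0.10 and Prim2 falling by 0.55 ± 0.09. Between both agents and dexamethasone 6 were lower and 4 higher (12.2% and 8.16%), against 11.3% and 14% of all genes.

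The 1 that rose under dexamethasone was Mcm10, a replication factor that works with the Mcm helicase. Its levels were 6.45 and 6.33 in vehicle, 8.80 and 8.94 after dexamethasone, 6.21 and 6.25 after AICAR and 7.51 and 7.51 after both. It rose by 2.48 ± 0.08 (5.57-fold, adjusted p = 4.63e-07) while the 6 Mcm members of the helicase lay below vehicle, and AICAR lowered the level under dexamethasone by 1.35 ± 0.08. A second Mcm10 probe set gave 2.26 ± 0.16 (adjusted p = 3.02e-05) and -1.25 ± 0.16 (adjusted p = 0.00085) in these comparisons. Gmnn, geminin, which blocks a second round of replication, was 1.00 ± 0.08 higher after both agents than after dexamethasone (adjusted p = 6.33e-05). Its second probe set, with means of 3.89 after both and 3.82 after dexamethasone, close to the low mark, gave 0.07 and was not called.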

How the data were processed

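The deposited table holds log2 values per probe set, which the authors made with RMA (affy), according to the submitters' processing notes; versions are not given in the sources used here, and the base of the logarithm was read from the range of the values. RMA gives no detection call and compresses changes of dim probe sets. Of 31099 probe sets 57 array controls were left out. Of the 31042 tested, 20826 carried 1 gene symbol in the platform annotation, 436 several and 9780 none here. Array medians lay between 5.22 and 5.27, and the 2 arrays per group limit the precision.

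limma 3.58.1 in R 4.3.3 was fitted to all 8 arrays with 1 coefficient per group and Benjamini-Hochberg adjustment over all tested probe sets (4 residual and 4.58 prior degrees of freedom). The interaction is both minus AICAR, less dexamethasone minus vehicle. No exact permutation test was made, since its smallest two-sided p with 2 arrays against 2 is 0.333. On simulated data for dexamethasone against vehicle over 31042 probe sets, 76% of 50 changes of 0.5 on the log2 scale were recovered and 100% of those of 1, 2 and 3, with 12 false among 200 calls.

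The members, the lists and the tests were chosen with earlier results of these data known. Per-array values are given for members called with a log2 difference of 1 or more in size and for the brightest of each role. Tyms was added after its values were seen, as the 1 member called above vehicle by the probe set that stood for it. Up to 4 called genes with the smallest p per other list could be named. Gmnn and Mcm10 came under this rule. The alternatives tried were leaving out each array, averaging a gene's probe sets, centring, cyclic loess, a 2-fold minimum, a replicate block, fitting only the groups compared, a robust prior with a trend, and dropping dim probe sets. Promoters were matched by symbol to RefSeq (GRCr8), using the first listed start, and Ccna2, Ube2c, Aurkb, Racgap1, Foxm1, Pbk and Mcm4 had no entry there.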

Additional observations from a re-analysis of the deposited data

Results flagged for a closer look

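The effect of dexamethasone differed with and without AICAR, by the interaction term of limma, for 7 of the 42 members. The differences on the log2 scale were 0.95 for Pbk, 0.92 for Cdkn3, 0.73 for Nusap1, 0.71 for Dut, 0.68 for Top2a, 0.65 for Ttk and 0.52 for Ube2c. All 7 were above 0. Of all probe sets 15.6% were called in the interaction, 8.63% above 0 and 7.02% below. Of all genes with a probe set of their own 11.9% were called above 0 and 8.05% below. With means over probe sets Dut (adjusted p = 0.195) and Top2a (adjusted p = 0.123) were no longer called, and the calls of Cdkn3, Top2a, Ttk and Ube2c were also lost when single arrays were left out.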

How the results depend on the processing

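Of 3990 recomputed values of single members, 3661 kept direction and side of the threshold, 203 lost the call, 52 gained one and 1 changed sign with a call, Kif23 in dexamethasone against vehicle, which went from 0.07 to a called -0.54 with the mean over its probe sets. The remaining 73 changed sign with no call in either fit, at sizes up to 0.179. With a 2-fold minimum the AICAR counts were 0 mitotic and 0 S-phase, those of both against dexamethasone 0 and 0, those of the interaction 0 and 0, and the S-phase counts were 1 for dexamethasone, for both against vehicle and for both against AICAR. The S-phase count for AICAR was 2 with cyclic loess, 2 with the filter and 0 with means over probe sets; the S-phase count of both against dexamethasone was 1 with means over probe sets and 1 with only the groups compared, and that of the interaction 0 with means and 2 with centring. Leaving out 1 array gave 5 to 13 mitotic and 0 to 1 S-phase calls for AICAR, 1 to 4 and 0 to 2 for both against dexamethasone, 2 to 6 mitotic for the interaction, and 6 to 11 S-phase for both against AICAR. The replicate numbers are shared between groups, and the labels do not say what they stand for. Deviations of same-numbered arrays correlated at -0.04 to 0.16, and whether these arrays share a batch or a pairing was not tested. With the replicate block, mitotic and S-phase calls were 26 and 10 for dexamethasone, 13 and 1 for AICAR, 28 and 12 for both against vehicle, 3 and 2 against dexamethasone, 26 and 10 against AICAR, and 6 and 1 for the interaction. Centring moved the share of higher calls over all probe sets from 47.0% to 57.6% for dexamethasone, from 42.2% to 56.1% for AICAR and from 55.1% to 44% for the interaction. The cause of these shifts was not tested. Signal near the low mark limits the size of falls, as 7 mitotic genes had low means after dexamethasone.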
